A study of Mus musculus with 33 samples.

Results

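To examine what the loss of HP1β alone does to the transcriptome of mouse embryonic stem cells (ESCs), the 3 RNA-seq libraries of HP1β knockout ESCs were compared with the 3 wild-type libraries deposited in the same table (wild-type set A). These are 6 of the 33 libraries of the series, chosen by their labels, and all 55487 genes of the table were considered. Both groups are C57BL/6 ESCs. The knockout cells carry a constitutive deletion in Cbx1, the gene for HP1β, made with CRISPR-Cas9 and a pair of guide RNAs, and the wild-type cells carry no deletion. Both were grown on mouse embryonic fibroblast feeders in medium with serum and LIF, and the feeders were removed by letting them attach to a plate before the cells were collected. The study's methods call the 3 libraries of a group biological replicates. Clones were picked and screened by PCR after editing, but it is not said whether the replicates are cultures of 1 clone or different clones, so that the p values measure the spread between these libraries and not between independently edited lines. A further set of 3 wild-type libraries (wild-type set B), HP1α knockout ESCs, HP1γ knockout ESCs and HP1α/β double knockout ESCs, 3 libraries each, were used to see which differences also appear against other cells. Levels are also given in HP1α/γ and HP1β/γ double mutants, which like the other single and double mutants carry constitutive deletions, and in the HP1α/β/γ triple mutant, in which HP1γ was removed shortly before collection by transfecting Cre into α/β double knockout cells with a floxed HP1γ gene.

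HP1 proteins are readers of chromatin. Their chromodomain binds histone H3 that is methylated on lysine 9, a mark of silent chromatin, and their chromo shadow domain forms dimers and binds partners such as H3K9 methyltransferases and co-repressors. Mammals have 3 of these proteins, HP1α (gene Cbx5), HP1β (Cbx1) and HP1γ (Cbx3), which are thought to stand in for each other in part, and ESCs are known for holding germline, lineage and retroviral sequences silent through the same pathway.

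The guide sequences are shown because they define the allele. The upstream guide matches GRCm38 at chr11:96801311-96801330 on the + strand, the strand of Cbx1. It lies in the intron between exon 2 (96800771 to 96800947) and exon 3 (96801429 to 96801606) of the 4 exons of transcript Cbx1-201, with 98 bases between the guide and exon 3, and it was found in the retained-intron transcript Cbx1-205. The downstream guide matched no annotated transcript of GENCODE M21, so its position is not given. Both are written 5′ to 3′, and the capitals mark the 3-base PAM that follows the upstream guide in the transcript.
HP1β upstream guide: tactaggaaagtctagcgatTGG
HP1β downstream guide: tcttgcatagaagcctaggc

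The 6 libraries hold between 20233367 and 22828538 estimated counts, and the 27 libraries used here between 17330936 and 25743149. Levels are given as CPM, the count of a gene relative to the library total after TMM scaling. The cells carried the markers of ESCs in both groups, and the 6 ESC markers (Pou5f1, Sox2, Nanog, Esrrb, Zfp42 and Dppa5a) summed to 2302 to 2390 CPM without scaling in the knockout and to 2411 to 2425 CPM in wild-type. Of 10 feeder fibroblast markers, Fap had no count in either group and Lum none in wild-type, and the list summed to 28.9 to 32.3 CPM in the knockout against 23.9 to 24.3 CPM in wild-type. The most abundant of them went in different directions. Col1a1 had 359, 366 and 376 counts in the knockout against 128, 144 and 120 in wild-type. Thy1 had 202, 208 and 213 against 298, 296 and 300, and Dcn 16, 19 and 26 against 31, 25 and 34. The 5 primitive endoderm markers summed to 8.02 to 8.95 CPM against 6.61 to 9.05 CPM. Of 6 markers of 2-cell-like cells, Zscan4d, Zscan4f, Tcstv3 and Zfp352 had no count in the 6 libraries, and the list summed to at most 0.247 CPM.

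The transcript of the targeted gene fell in every knockout library. Cbx1 (ENSMUSG00000018666, chromosome 11 of GRCm38, 96789127 to 96808640) had 424, 436 and 439.7 CPM in the wild-type libraries and 97.6, 97.5 and 109 CPM in the knockout libraries. The groups were far apart, and the log2 fold change was −2.095 with a standard error of 0.049 and an adjusted p of 5.36e-10 (quasi-likelihood test of edgeR, adjusted after Benjamini and Hochberg over all genes tested). Counts per gene do not show which exons the remaining reads cover, so that the residual level does not measure intact HP1β transcript. With 3 libraries against 3, an exact permutation test of a single gene cannot give a two-sided p under 0.1, and the tests below are those of the fit across all genes.

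The other HP1 transcripts changed little. Cbx3 had 183, 170.4 and 171 CPM in wild-type and 192, 206 and 209.7 CPM in the knockout, a log2 difference of 0.21 (standard error 0.048, adjusted p = 0.00311 from edgeR), and Cbx5 differed by −0.11 (standard error 0.041, adjusted p = 0.0343). Neither reached the fold threshold of 1 on the log2 scale. Levels of different genes can be compared per length, in the TPM values that the authors deposited. On that scale Cbx1 was the highest of the 3 in wild-type, at 450 ± 11.3 TPM (SD, n = 3) against 145 ± 4.83 TPM for Cbx3 and 91.4 ± 5.61 TPM for Cbx5. In the knockout it was the lowest, at 69.3 ± 5.08 TPM, with 163 ± 9.23 TPM for Cbx3 and 85.4 ± 2.52 TPM for Cbx5. Cbx1 thus made up 65.6% ± 0.480 (SD, n = 3) of the summed TPM of the HP1 genes in wild-type and 21.8% ± 0.963 in the knockout, and the sum itself was 686 ± 12.3 TPM against 317 ± 13.9 TPM. The fit to the counts gave a smaller fall of Cbx1, 4.27-fold, than these TPM values. The share and the sum therefore depend on the scale, and the cause of the difference was not tested.

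**Figure D1:**
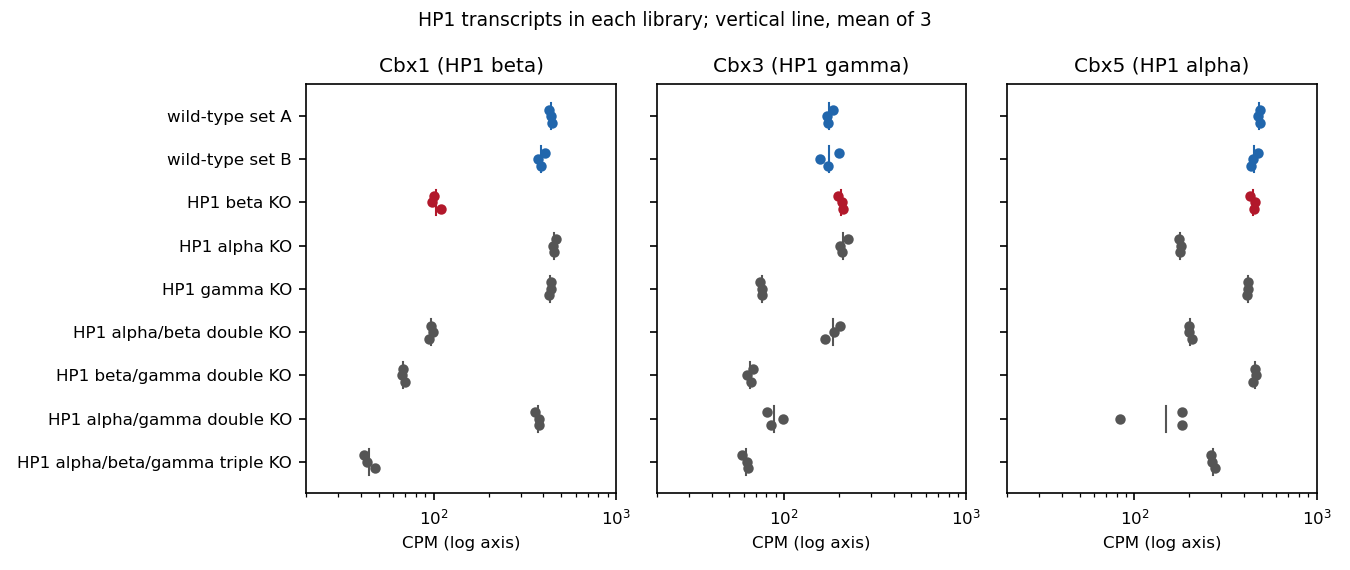
CPM of Cbx1, Cbx3 and Cbx5 in the 27 libraries of 9 genotypes scaled together (log axis; each point is 1 library and each vertical line the mean of 3). Cbx1 lay at 103 ± 5.94 CPM (SD, n = 3) in HP1β knockout ESCs and 439.7 ± 9.42 CPM in wild-type set A, whereas Cbx3 and Cbx5 of the HP1β knockout lay near the wild-type levels.

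Genes near Cbx1 were examined for changes around the edited locus. Of 20 other genes tested within 500 kb, 1 was called, beside 9.1% of all genes tested. It was Copz2, a coatomer subunit that is encoded downstream of Cbx1. It had 3.37, 4.56 and 3.23 CPM in wild-type and 1.36, 1.96 and 1.19 CPM in the knockout (log2 fold change −1.301, standard error 0.27, adjusted p = 0.00176). The next genes on either side, Snx11 and Nfe2l1, differed by 0.198 and −0.083, and the 20 genes had a median of 0.062. In HP1α/β double against HP1α knockout ESCs, a pair that also differs in Cbx1, Copz2 was called in the opposite direction (1.44, adjusted p = 1.14e-06 from edgeR).

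Across the transcriptome, more genes fell than rose. A gene was called where the adjusted p fell below 0.05 and the fold change exceeded 1 on the log2 scale in either direction. Of 15845 genes tested, 1442 were called (9.1%), 435 higher in the knockout (2.75%) and 1007 lower (6.36%), and the median of all genes was −0.032. The groups of 3 libraries did not overlap for 1413 of the 1442 genes, beside 59.6% of all genes tested. Most changes were moderate, with medians of 1.39 for the genes that rose and −1.36 for those that fell, and 82 of the former and 136 of the latter passed 2 on the log2 scale. Many of the called genes were weakly expressed. The genes that fell had a median level of 3.58 CPM in wild-type and those that rose one of 0.998 CPM, against 17.8 CPM over all genes tested, and 574 of the 1442 reached a mean of 5 CPM in the higher group. Protein-coding genes made up 82.8% of the genes that rose and 85.0% of those that fell, against 88.4% of all genes tested. In cells of one line, fewer cells that express a gene and less of its RNA in each cell cannot be told apart here.

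The choice of wild-type cells mattered. The wild-type sets themselves differed in 909 of 16008 genes (5.68%). Against set B, 2429 of 15933 genes were called (15.2%), 898 higher (5.64%) and 1531 lower (9.61%). Of the 1442 genes called against set A, 1048 were also called in the same direction against set B, 308 higher and 740 lower, and 26 were called in the opposite direction. The fit against set B tested 1385 of the 1442 genes. Both comparisons share the knockout libraries.

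The largest falls were in genes of varied families. The most abundant was Usp26, an X-linked deubiquitinase gene of the testis, with 169.7, 168 and 175 CPM in wild-type and 6.84, 7.71 and 7.88 CPM in the knockout (log2 fold change −4.51, standard error 0.064, adjusted p = 6.6e-12). Each knockout library lay far below each wild-type library. Cyct, which encodes the cytochrome c of the testis, fell from 29.2, 30.3 and 25.7 CPM to 3.77, 4.68 and 2.66 CPM (−2.93, adjusted p = 1.07e-07). Egln3, a prolyl hydroxylase that marks HIF proteins for degradation, fell from 54.9, 53.9 and 55.02 CPM to 8.44, 7.22 and 8.497 CPM (−2.76, adjusted p = 1.35e-09), and the values within each group lay close together.

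The other 7 genes reported among the largest falls were less abundant. Tarm1, a receptor of myeloid cells, had 5.74, 4.602 and 5.75 CPM in wild-type, and in the knockout 9, 1 and 3 counts (−4.66, standard error 0.42). Ccdc170 fell by 4.30 on the log2 scale, Efhc2, an X-linked gene for an EF-hand protein, by 3.49, and Sox6, a SoxD transcription factor, by 3.28. Pclo, a scaffold of the presynaptic active zone of neurons, fell from 19.9, 18.4 and 19.7 CPM to 2.66, 3.12 and 3.23 CPM. Serpinf1, a secreted serpin, had a log2 fold change of −2.67 and Heph, a ferroxidase, one of −2.63. With set B as the control, these 10 genes kept their direction and their calls, with log2 fold changes from −4.66 for Tarm1 to −2.41 for Serpinf1.

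The largest rise was that of H19, the imprinted non-coding RNA next to Igf2. It had 0.4099, 0.273 and 0.333 CPM in wild-type and 8.65, 8.47 and 6.46 CPM in the knockout (log2 fold change 4.51, standard error 0.25, adjusted p = 1.97e-07). Id3, an inhibitor of bHLH factors, rose from 9.29, 9.61 and 9.56 CPM to 50.7, 49.1 and 49.6 CPM (2.39, adjusted p = 1.35e-09), and Hand1, a bHLH factor of trophoblast and heart, from 2.73, 3.87 and 3.52 CPM to 19.4, 15.5 and 15.1 CPM (2.301, adjusted p = 6.35e-07). Hes3 and Sox21, which act in neural progenitors, rose by 2.97 and 2.48 on the log2 scale.

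The other rises were in genes of varied families. Nefm, a neurofilament subunit, rose from 2.55, 1.78 and 2.19 CPM to 16.1, 18.5 and 16.5 CPM (2.97, adjusted p = 7.17e-08). Cyp2b23, a cytochrome P450 gene, rose from 2.69, 2.96 and 2.38 CPM to 17.5, 19.2 and 17.7 CPM (2.76), and Arntl2, a bHLH partner of CLOCK, from 14.6, 12.5 and 15.8 CPM to 55.4, 67.03 and 67.2 CPM (2.14). Cryab, a small heat shock protein, Mep1b, a metalloprotease, Myh7, the β-cardiac myosin heavy chain, and Rpl39l, a paralog of a ribosomal protein gene, rose by 2.42, 2.28, 2.195 and 2.74. Reads of Rpl39l may be shared with its near-identical parent gene. The 12 rises were also called against set B, from 1.46 for Arntl2 to 4.01 for Hes3.

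**Figure D2:**
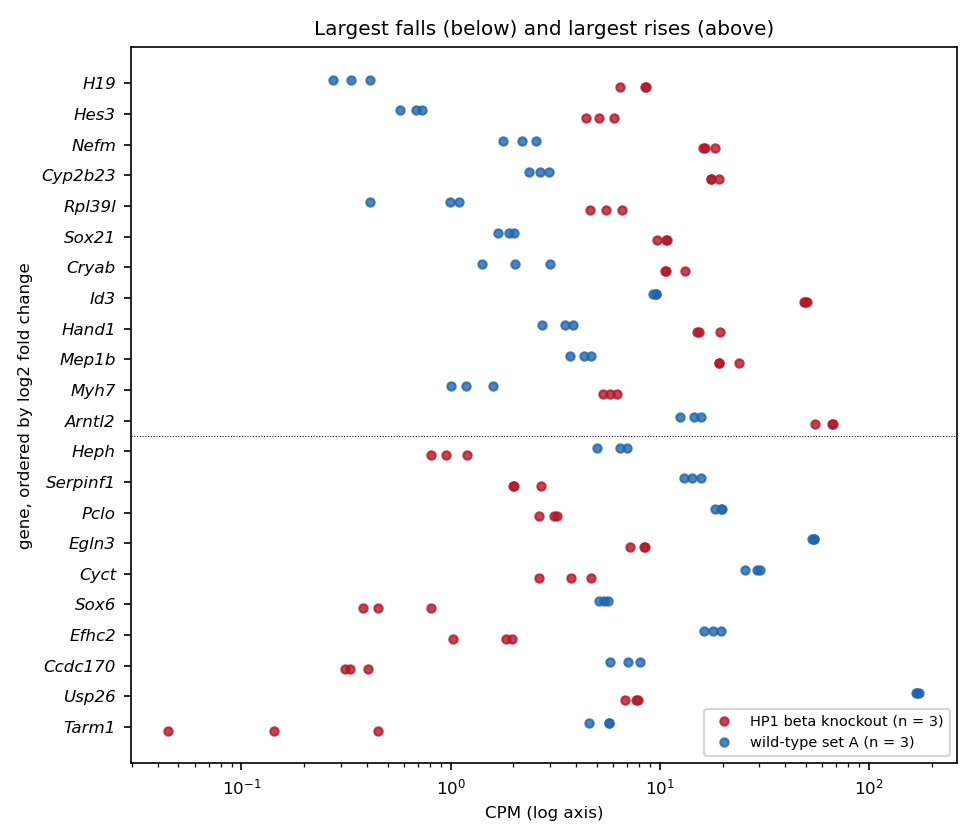
CPM (log axis) of 10 genes with the largest falls and 12 with the largest rises in the 3 HP1β knockout libraries (red) and the 3 libraries of wild-type set A (blue). In none of the 22 genes did the groups overlap, which the choice of the genes required, and Usp26 lay at 7.48 ± 0.5603 CPM (SD, n = 3) against 171 ± 3.55 CPM.

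Among genes without an established name, Gm49229 (−3.57) and Gm6764 (−2.57) fell and Gm45351 (4.696), Gm17019 (3.13) and Gm49394 (2.89) rose the most. Gm49394 overlaps Igf2 on the same strand, so that reads may be shared between them. Gm20305 fell from 13.4, 11.3 and 11.7 CPM to 2.71, 2.27 and 3.47 CPM (−2.103) against set A, but it had no counts in set B and was higher in the knockout.

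Of the most abundant genes called, Cbx1 and Usp26 changed the most and the others by less. Slc2a3, the glucose transporter GLUT3, rose from 509.5, 504 and 496 CPM to 1099.9, 1028 and 1026 CPM (1.06), yet the difference from set B was 0.44, which is not called. Polr2a, the largest subunit of RNA polymerase II, rose by 1.04 (0.98 with set B, just below the threshold). Epop, a partner of PRC2 and Elongin BC, rose from 306, 299 and 299 CPM to 772, 692 and 692 CPM (1.26), and Mat2a, which makes S-adenosylmethionine, the methyl donor of histone methylation, from 324, 318 and 337 CPM to 672, 666 and 672 CPM (1.04). Mllt6 and Ckb, a creatine kinase, rose by 1.09 and 1.12.

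On the side of the falls, Dppa5a, an RNA-binding protein of pluripotent cells, went from 502, 492 and 521 CPM to 261, 244 and 247 CPM. Its log2 fold change of −1.01 lay at the threshold and passed it no longer with set B (−0.96), RLE scaling (−0.99) or DESeq2 (−0.99), nor without wild-type replicate 3 (−0.98) or knockout replicate 2 (−0.99) or 3 (−0.99). Asns, asparagine synthetase, fell from 345, 333 and 332 CPM to 162, 149.8 and 147 CPM (−1.14, and −0.93 with set B, not called). Nav2, a microtubule-associated protein of neurons, and Platr14, a long non-coding RNA of ESCs, fell by 1.25 and 1.24.

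Genes of the H3K9 methylation pathway were then examined as groups, each read against the shares of all genes tested that rose (2.75%) or fell (6.36%). None of 8 H3K9 methyltransferase genes was called by edgeR (median 0.061), though 1 was higher at an adjusted p under 0.05 alone, and none of 17 genes for their cofactors (median 0.155), of which 8 were higher and 3 lower by that measure. Setdb1 had 194, 206 and 194 CPM in wild-type and 209, 204 and 202 CPM in the knockout (log2 fold change 0.050, standard error 0.041, adjusted p = 0.331). Trim28, the co-repressor that recruits SETDB1 to zinc finger proteins, had 1440.1, 1460.2 and 1444 CPM and 2128, 1993 and 1949 CPM, a difference of 0.48 that is below the fold threshold (adjusted p = 8.45e-07). Of 27 genes for HP1 binding partners, a list that holds Cbx1 itself, the other member called was Senp7, a SUMO protease of pericentric heterochromatin on chromosome 16, at −1.07. It was not called with set B (−0.57) or without knockout replicate 1 (−0.99). Of 10 H3K9 demethylase genes, Kdm7a fell from 56.3, 51.9 and 52.7 CPM to 15.9, 25.1 and 23.97 CPM (−1.304).

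The network of pluripotency stayed within the threshold apart from Dppa5a. Of 25 core and naive pluripotency genes, 1 fell and none rose, with a median of 0.093. Pou5f1, Sox2 and Nanog differed by 0.13, 0.052 and 0.43, and Tbx3 (0.99) and Nr5a2 (0.95) were the largest positive differences. Of 19 formative and primed genes 2 rose. These were Etv4, an ETS factor of FGF signalling (1.14), and Otx2 (1.26), and neither was called with set B (0.89 and 0.44). Against HP1α and HP1γ knockout ESCs the value of Otx2 was −1.21 and −0.68, of the opposite sign, and the first of these was called.

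Of genes of signalling pathways, several ligands rose. Nodal, the TGFβ ligand that patterns the epiblast, rose from 49.1, 47.4 and 51.5 CPM to 115, 104 and 104 CPM (log2 fold change 1.12, standard error 0.058, adjusted p = 1.07e-07), and Inhbb, an activin subunit, by 1.701. The other 15 of 17 tested genes of Nodal signalling were not called (median of the list −0.242), and the Nodal targets Lefty1 and Lefty2 had values of −0.49 and −0.63. Of 19 FGF-ERK genes 3 rose and none fell (median 0.131): Spry4, a feedback inhibitor, from 107, 106 and 104 CPM to 221, 220.4 and 227 CPM, Etv4, and Fosl1, an AP-1 subunit (1.57). With set B Spry4 (0.78) was not called.

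Of 14 Wnt genes 3 rose and none fell, with a median of 0.734. Wnt3, the ligand that starts gastrulation, rose from 2.19, 1.96 and 1.05 CPM to 5.93, 5.66 and 5.601 CPM (log2 fold change 1.72, standard error 0.24, adjusted p = 0.00014). Cdx2, a homeobox factor of trophectoderm and posterior tissues, had 0.0911, 0.273 and 0.143 CPM in wild-type and 1.96, 1.34 and 1.09 CPM in the knockout (3.06, standard error 0.49). Both were low, though with no overlap between the groups. Cdx2 had 2, 6 and 3 counts in wild-type and passed the filter on low counts through the knockout libraries. It could thus enter the list only as a rise, and the share and median of the list follow in part from the filter. Sp5 (1.12) lost its call without wild-type replicate 1 (1.08) or 3 (0.88) or knockout replicate 1 (0.87). Axin2, a general target of the pathway, was not called (0.93).

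Of the lineage lists, mesoderm and trophectoderm had the highest shares of genes that rose. Of 13 mesoderm and primitive streak genes 6 rose and 1 fell, with a median of 1.05. Bmp4, the ligand that induces mesoderm, rose from 4.96, 4.51 and 4.42 CPM to 14.8, 19.8 and 17.1 CPM (log2 fold change 1.89, standard error 0.13, adjusted p = 8.35e-07), and Gata2, a factor of trophoblast and blood, from 1.73, 2.096 and 1.76 CPM to 4.62, 4.37 and 5.13 CPM (1.33). The rest of those that rose were Hand1, Evx1 (3.31), Msx1 (1.803) and Msx2 (1.47). Kdr, the VEGF receptor of early mesoderm, fell from 5.47, 5.65 and 5.66 CPM to 1.61, 2.27 and 2.56 CPM (−1.37). The 6 rises were also called against set B, 4 of them against HP1α knockout ESCs and 3 against HP1γ knockout ESCs, comparisons that share the knockout libraries.

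Of 17 trophectoderm genes 7 rose and none fell (median 0.877). The most abundant were the keratins of simple epithelia. Krt8 rose from 55.3, 57.7 and 56.3 CPM to 239, 202 and 202 CPM (log2 fold change 1.92, standard error 0.068, adjusted p = 9.12e-09), and its partner Krt18 from 43.3, 45.7 and 39.2 CPM to 162, 138 and 153 CPM (1.82). Tfap2c, a trophectoderm and germ cell factor, rose from 32.98, 31.4 and 30.4 CPM to 70.1, 73.4 and 68.2 CPM (1.16, and 0.52 with set B, not called). Hand1, Cdx2, Krt7 (1.22) and Esx1 (1.45) were the others, and Krt7 and Esx1 had 0.78 and 0.97 with set B, not called. Cdx2 passed the filter through the knockout libraries, as given above, so that the share and median here also follow in part from the filter. Elf5 did not pass the filter on low counts, and Gata3 (0.54), Eomes (−0.37) and Tead4 (0.45) were not called. Against set B 4 of the 7 were called.

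Of 20 feeder fibroblast genes tested 2 rose and 1 fell, with a median of 0.111. Col1a1, type I collagen, had 5.83, 6.56 and 5.71 CPM in wild-type and 18.05, 16.3 and 17.8 CPM in the knockout (1.53), and it did not differ by the threshold from set B (0.196). Twist1 (−1.3) was not called with set B either (−0.71), and of the 3 genes called here none was, by edgeR. The part of feeder RNA in the rises above was not tested. Of 41 collagen and laminin genes 1 rose and 2 fell, Lama4 (−1.92) and Col26a1 (−1.04, but −0.94 without wild-type replicate 1 and −0.79 without knockout replicate 2, neither called).

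Neural and endoderm genes gave smaller shares. Of 16 neural and ectoderm genes 4 rose and 1 fell (median 0.099). Pax6, a regulator of eye and forebrain, rose from 5.47, 6.197 and 3.52 CPM to 18.3, 16.1 and 13.3 CPM (1.65), Neurog1, a proneural factor, by 1.18 (0.99 without wild-type replicate 1, not called), and Dsp, a desmosomal plaque protein of ectoderm, by 1.3 (0.45 with set B, not called). Cdh9, a cadherin, fell from 11.8, 10.8 and 10.9 CPM to 3.62, 2.32 and 3.23 CPM (−1.87). Of 14 endoderm genes Sox7, a SoxF factor, rose (2.62) from at most 0.774 CPM in wild-type to 2.87, 2.72 and 3.28 CPM, and Cubn, an endocytic receptor, fell (−1.66, with an adjusted p of 0.0574 from edgeR without wild-type replicate 3). Sox7, at 17, 6 and 8 counts in wild-type, passed the filter through the knockout libraries. Of 39 Hox genes listed 4 passed the filter and 3 of these rose, from low levels. The highest was Hoxd13, at 0.501, 0.683 and 0.808 CPM in wild-type and 1.26, 2.18 and 1.804 CPM in the knockout (1.39). Hoxb9 (2.096) and Hoxa7 (1.21) lost their calls when single libraries were left out. This held for Hoxa7 with each of the 6 and for Hoxb9 without wild-type replicate 1 (1.52) or 2 (1.77) or knockout replicate 2 (1.74). Both passed the filter through the knockout libraries. Hoxb9 had 0, 2 and 10 counts in wild-type and 13, 26 and 13 in the knockout. Hoxa7 had 5, 5 and 7 against 10, 13 and 16. The share and the median of the Hox list thus follow in part from the filter.

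**Figure D3:**
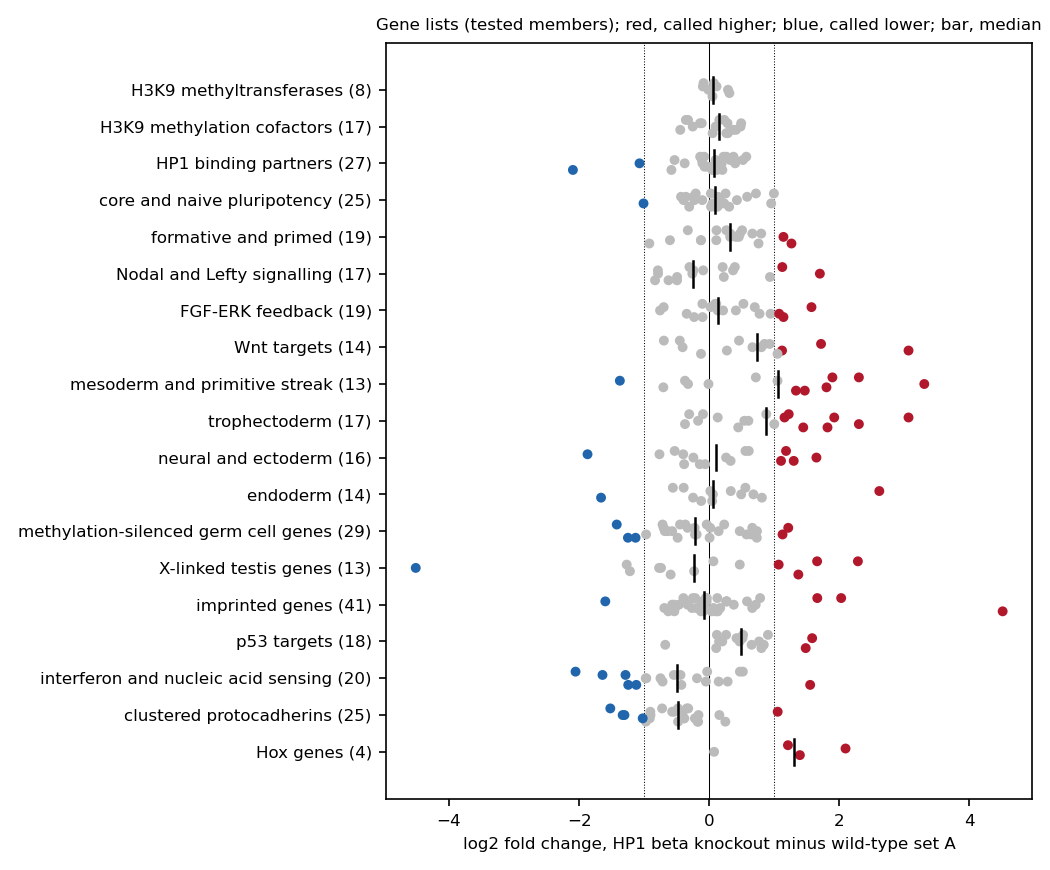
Log2 fold change of HP1β knockout ESCs minus wild-type set A for each tested member of 19 gene lists (points; the number tested stands in brackets, the bar is the median, red and blue mark genes called higher and lower, and dotted lines the fold threshold). Mesoderm and trophectoderm genes reach furthest to the right as groups, with medians of 1.05 and 0.877, after the 4 Hox genes with 1.30, while the H3K9 methyltransferases lie around 0.061. Of the Hox genes, Hoxb9 and Hoxa7 passed the filter on low counts only through the knockout libraries. The same held for Cdx2 of the Wnt and trophectoderm lists, Sox7 of the endoderm list and Airn of the imprinted genes.

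Germline genes went in both directions. Of 29 tested germ cell genes that DNA methylation silences in somatic cells, 2 rose and 3 fell (median −0.219). Tex14, an intercellular bridge protein, fell from 21.9, 25.8 and 24.9 CPM to 9.85, 8.74 and 8.54 CPM (−1.42), as did Hormad1 (−1.25) and Sycp3 (−1.13, but −0.87 without knockout replicate 1, not called), which build meiotic chromosome axes. Syce1, of the synaptonemal complex, rose from 2.96, 2.096 and 2.996 CPM to 6.33, 5.97 and 6.41 CPM (1.22). Of 13 tested X-linked testis genes 4 rose and 1, Usp26, fell. Xlr3b, an imprinted gene family member, rose from 2.46, 1.73 and 1.76 CPM to 4.98, 5.97 and 4.46 CPM (1.37). Fthl17b and Fthl17c, ferritin-like genes, rose from a low level by 1.66 and 1.07. Copies of Xlr3 and Fthl17 are nearly identical, so that reads may be split between them, and Fthl17c lost its call with set B (0.403), under DESeq2, or without wild-type replicate 1 or 2 or knockout replicate 1 or 3 (0.81 to 1.13).

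Of 41 imprinted genes 3 rose and 1 fell, with a median of −0.074. H19 and Igf2 are neighbours under 1 imprinting control region, are normally expressed from opposite parental alleles, and were both higher in the knockout. Igf2, a growth factor, rose from 45.5, 45.7 and 42.9 CPM to 141, 139 and 145 CPM (log2 fold change 1.66, standard error 0.049, adjusted p = 3.19e-09). It was 0.87 with set B, below the fold threshold, whereas H19 was called there at 3.87. The other gene that rose was Airn (2.03), which lost it without wild-type replicate 2 (1.56) or knockout replicate 2 (1.84) and which lies antisense to Igf2r, so that reads of the pair can be told apart only if strand was used in counting, which is not stated. Airn, at 8, 1 and 5 counts in wild-type, passed the filter on low counts through the knockout libraries. Sgce, the paternally expressed ε-sarcoglycan gene, fell from 4.099, 4.602 and 4.04 CPM to 1.16, 1.52 and 1.52 CPM (−1.597). Peg10, its neighbour, had a value of −0.26, and the maternally expressed Meg3 one of −0.47.

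Genes of innate immunity fell more often than they rose. Of 20 tested genes of the interferon response and nucleic acid sensing 5 fell and 1 rose, with a median of −0.492. Bst2, the membrane tether of budding viruses, fell from 57.4, 59.4 and 57.8 CPM to 24.03, 22.8 and 24.8 CPM (log2 fold change −1.29, standard error 0.057, adjusted p = 4.06e-08). Oasl2, an OAS-like protein, fell by 1.24 and Zbp1, a sensor of Z-form nucleic acid, by 1.12 (−0.995 without wild-type replicate 3, not called), and Oas1b (−2.05) and Ifit2 (−1.64) also fell. Oas1a rose (1.55, and 0.39 with set B, not called). The 5 falls were also called against set B, and 4 of them against HP1α knockout ESCs. None was called by edgeR against HP1γ knockout ESCs, where Bst2 (−0.62) and Zbp1 (−0.86) had an adjusted p under 0.05 but not the fold change.

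Of 18 p53 targets 2 rose, Plk2, a Polo-like kinase, from 27.4, 26.4 and 25.7 CPM to 82.2, 76.1 and 79.8 CPM (1.58), and Perp, a desmosomal protein, from 22.7, 21.7 and 22.8 CPM to 65.3, 60.7 and 62.04 CPM (1.48). Without the fold threshold, 15 of the 18 were higher and 1 lower at an adjusted p under 0.05, beside 24.7% and 26.4% of all genes tested, and their median was 0.490. Cdkn1a was not called (0.12).

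Gene families were examined next. Of 354 zinc finger genes 6 rose and 8 fell (median 0.000), below the shares of all genes, and 3 of the rises and 6 of the falls were also called against set B. Among these was Zfp296, a KLF4 partner in ESCs, which rose from 30.3, 29.5 and 29.4 CPM to 101, 92.4 and 88.8 CPM (1.66), while Zfp365 rose by 1.39 and Zfp362 fell by 1.38. Of 25 clustered protocadherins 4 fell and 1 rose (median −0.478), and 1 of the falls and the rise were also called against set B. Pcdhga12 (−1.33) kept its call there, at the threshold, whereas Pcdhgb1 (−1.52) and Pcdhgb5 (−1.02) had −0.98 and −0.39 with set B, not called, and Pcdhb2 (−1.303) was not tested there. Pcdhb17 (1.05) lost its call under DESeq2, the replicate block and without 5 of the 6 single libraries (0.81 to 1.24), all but knockout replicate 2, and Pcdhgb5 lost it without wild-type replicate 2 or knockout replicate 1 or 2 (−0.89 to −0.73). The isoforms of a protocadherin cluster share exons, so that their counts are uncertain. Of 43 tested vomeronasal and olfactory receptor genes 3 fell and 1 rose, and 2 of the falls and none of the rises were also called against set B by edgeR. Olfr1156, the gene that rose (2.42), had −0.034 with set B, and Olfr509 (−1.28) had −0.5. Olfr1156 had 2 counts in each wild-type library and passed the filter on low counts through the knockout libraries. Olfr986 (−1.01) was called against set B but lost its call against set A under RLE scaling (−0.99), DESeq2 (−0.99) and without wild-type replicate 1 or 2 or knockout replicate 2 or 3 (−1.02 to −0.9). Olfr307 kept its call, with 1.55, 1.504 and 1.62 CPM in wild-type and 0.0503, 0.357 and 0.427 CPM in the knockout (−2.44). Of 4 replication-dependent histone genes Hist1h2br rose from at most 0.456 CPM (1.97, not called with set B at 1.503, nor without wild-type replicate 1 (1.40) or 3 (1.68) or knockout replicate 2 (2.04) or 3 (1.65)). Hist1h2br also passed the filter through the knockout libraries. Of 15 mitochondrial genes mt-Nd3 fell, with 7.88, 10.1 and 17.3 CPM in wild-type and 1.21, 6.33 and 3.56 CPM in the knockout (−1.64). Of 32 genes of 2-cell-like cells in the table none passed the filter on low counts.

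Genes on chromosome 16 lay lower as a whole. The median of its 465 tested genes was −0.306, with 79.8% of them below 0, against a median of −0.022 on all other chromosomes, and 58 fell (12.5%) and 8 rose (1.72%). Against set B the median was −0.221. The shift ran along the whole chromosome, since each of 10 blocks of 46 or 47 neighbouring genes had a median between −0.473 and −0.18. Against HP1α and HP1γ knockout ESCs it was of the opposite sign, at 0.200 and 0.198. Both of those mutants thus lay lower on this chromosome than HP1β knockout ESCs, which themselves lay below both wild-type sets. A low level of chromosome 16 is therefore not particular to HP1β knockout ESCs. No other autosome had a median beyond −0.069 or 0.048 against set A. Senp7, Slc15a2 and Rpl39l are among the genes named here that lie on chromosome 16. Without this chromosome, 1376 genes were called, 427 higher and 949 lower. The part that the number of chromosome copies has in this shift was not tested. On the X chromosome 9.27% of 561 genes fell and 4.28% rose.

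**Figure D4:**
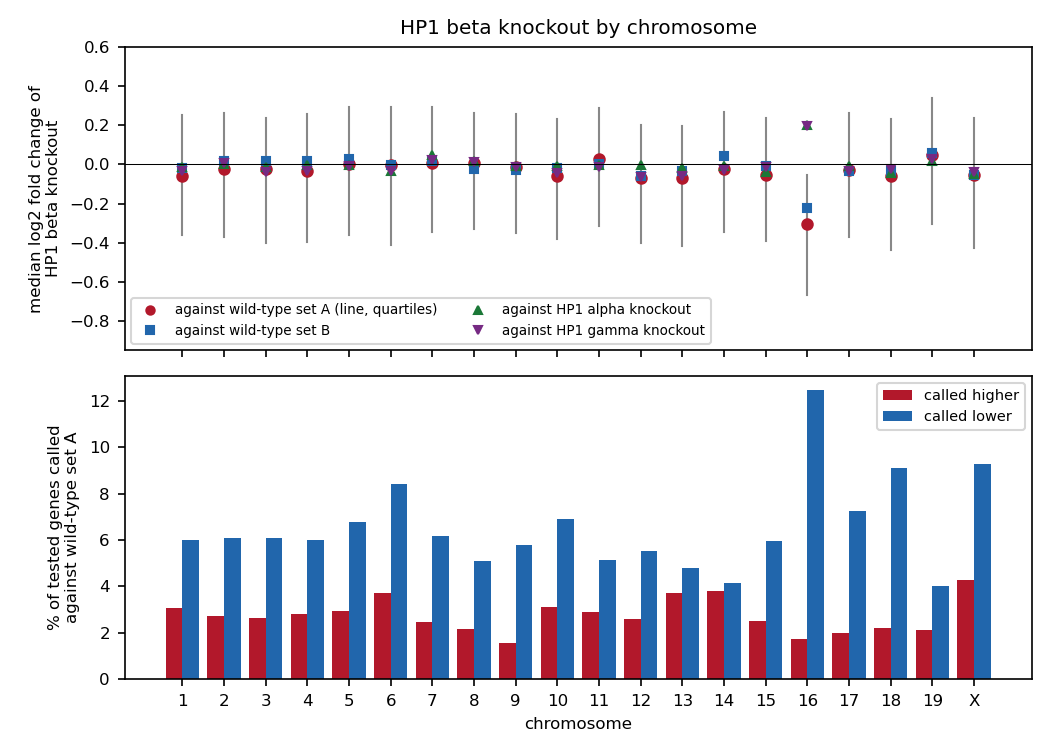
Upper panel, median log2 fold change of HP1β knockout ESCs by chromosome against wild-type set A (red circles, with a line from the lower to the upper quartile), wild-type set B, HP1α knockout and HP1γ knockout ESCs. Lower panel, percent of tested genes called higher (red) or lower (blue) against set A. Chromosome 16 stands apart, at −0.306 against set A and 0.200 against HP1α knockout ESCs, and 12.5% of its genes fell. The positive value means that HP1α knockout ESCs lay lower on this chromosome than HP1β knockout ESCs.

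To see where HP1β knockout ESCs differ from the cells that lack another HP1 protein, the single mutants were compared directly. Against HP1α knockout ESCs 958 of 15728 genes were called (6.09%), 409 higher (2.6%) and 549 lower (3.49%) in HP1β knockout ESCs. Against HP1γ knockout ESCs 606 of 15702 genes were called (3.86%), 283 higher (1.8%) and 323 lower (2.06%). Of the 1442 genes called against set A, 516 (35.8%) were called in the same direction against HP1α knockout ESCs and 4 in the opposite direction, and 325 (22.5%) and 3 against HP1γ knockout ESCs. Of the 1442 genes, 1340 were tested against HP1α and 1314 against HP1γ knockout ESCs. These comparisons share the HP1β knockout libraries, so that the counts are descriptions.

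Called in the same direction against both wild-type sets and both other single mutants were 222 genes, 94 higher and 128 lower. They hold Usp26, Cyct, Tarm1, Ccdc170, Sox6, Egln3 and Serpinf1 of the largest falls, and H19, Hes3, Nefm, Cryab and Hand1 of the 12 largest rises. A call against another mutant does not place that mutant at the wild-type level. With the 27 libraries scaled together, Tarm1 had 5.45 CPM in set A, 1.49 in HP1α and 1.38 in HP1γ knockout ESCs. Means of H19 in the same order were 0.344, 1.88 and 3.03 CPM, and those of Egln3 55.4, 32.6 and 23.2 CPM. Ccdc170, Sox6 and Serpinf1 were also lower in both mutants than in set A. Hand1 lay closer to set A, at 3.43, 3.56 and 4.5 CPM. For Usp26 the log2 difference was −4.06 from HP1α and −3.11 from HP1γ knockout ESCs. Hand1 was higher by 2.24 and 1.89, and Cryab by 2.26 and 1.54. Of the gene lists, trophectoderm gave 4 of these genes (Krt8, Krt18, Hand1 and Cdx2), mesoderm 3 (Bmp4, Evx1 and Hand1), Wnt targets 2 (Wnt3 and Cdx2), p53 targets 2 (Plk2 and Perp) and Hox genes 2 (Hoxb9 and Hoxd13), whereas the lists of pluripotency, neural, interferon and nucleic acid sensing, and protocadherin genes gave none. The call of Hoxb9 against set A was lost when single libraries were left out, as given above. Hoxb9 and Cdx2 passed the filter against set A through the knockout libraries. A list of antigen presentation genes and interferon-inducible GTPases, made after the values were seen and described in the closing section, gave 11, among them Ddx60 and H2-Q7.

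Other genes did not set HP1β knockout ESCs apart. Sox21 had differences of 0.46 from HP1α and 0.058 from HP1γ knockout ESCs and was called in neither comparison. Cyp2b23 was higher than in HP1α knockout ESCs by 1.75 but had a value of −0.92 against HP1γ knockout ESCs. Bst2 and Oasl2 were called lower than in HP1α knockout ESCs (−1.37 and −1.85), and had values of −0.62 and −0.49 against HP1γ knockout ESCs, not called.

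Among genes that were also called against set A, the largest falls against HP1α knockout ESCs included the X-linked placental and germline genes Rhox5 (−3.35) and Pnma5 (−2.85) beside Usp26 and Cyct, and the largest rises Wnt3 (2.28), Ngfr, the p75 neurotrophin receptor (2.27), and Cryab. Against HP1γ knockout ESCs the largest falls, also of genes that had to reach 5 CPM in 1 of the groups, included Slc15a2 (−6.04), Fmr1nb (−4.43) and Usp26, and the largest rises Mcc (2.94), Xlr3b (2.299) and Wnt3 (2.16). The Slc15a2 value rests on 0, 9 and 0 counts in HP1β knockout ESCs, and its call against set A was lost under DESeq2. Mcc was not called against set B (0.69).

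The loss of HP1β can also be read in a pair of groups that shares no library with the comparison above, HP1α/β double knockout ESCs and HP1α knockout ESCs. There, 661 of 15751 genes were called (4.2%), 341 higher (2.16%) and 320 lower (2.03%) in the double knockout. Cbx1 differed by −2.25. Of the 435 genes that rose in HP1β knockout ESCs, 80 (18.4%) also rose here and 12 (2.76%) fell, and of the 1007 that fell, 106 (10.5%) also fell and 23 (2.28%) rose. These shares are of all called genes, of which 386 of the 435 and 933 of the 1007 were tested in this pair. The 80 genes are 23.5% of those that rose in this pair and the 106 genes 33.1% of those that fell. Over the called genes, the medians here were 0.420 for those that rose and −0.108 for those that fell, against 0.002 for all genes tested.

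Several of the largest changes recurred with nearly the same size. Usp26 had a log2 fold change of −4.71 here and −4.51 in HP1β knockout ESCs, Cyct −2.597 and −2.93, H19 3.91 and 4.51, and Nefm 2.57 and 2.97. Cyp2b23 (3.199), Rpl39l (2.47), Arntl2 (2.32), Hand1 (1.66), Wnt3 (2.05) and Krt8 (1.49) rose as well. By contrast, Id3 (−0.27), Hes3 (−0.66), Sox21 (0.24) and Nodal (0.32) were not called between double and HP1α knockout ESCs, nor was Ccdc170 (0.023). These values do not compare the double knockout with wild-type. With the 27 libraries scaled together, Sox21 had 9.13 CPM in the double, 7.7 in HP1α knockout ESCs and 1.89 in set A. Id3 had 23, 27.7 and 9.63 CPM, Ccdc170 2.69, 2.65 and 7.08 CPM, and Hes3 0.942, 1.49 and 0.671 CPM. In a test of the difference between the effect of HP1β loss with and without HP1α, over the 12 libraries of these 4 genotypes, 1573 of 16512 genes passed (9.53%). Of the 22 genes reported among the largest changes 10 passed, and their values are in the closing section. The genes that rose or fell the most here, among those called against set A, further included Dcdc2a (4.43), Pnma5 (−3.55), Cdh9 (−3.39) and Rhox5 (−2.82).

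**Figure D5:**
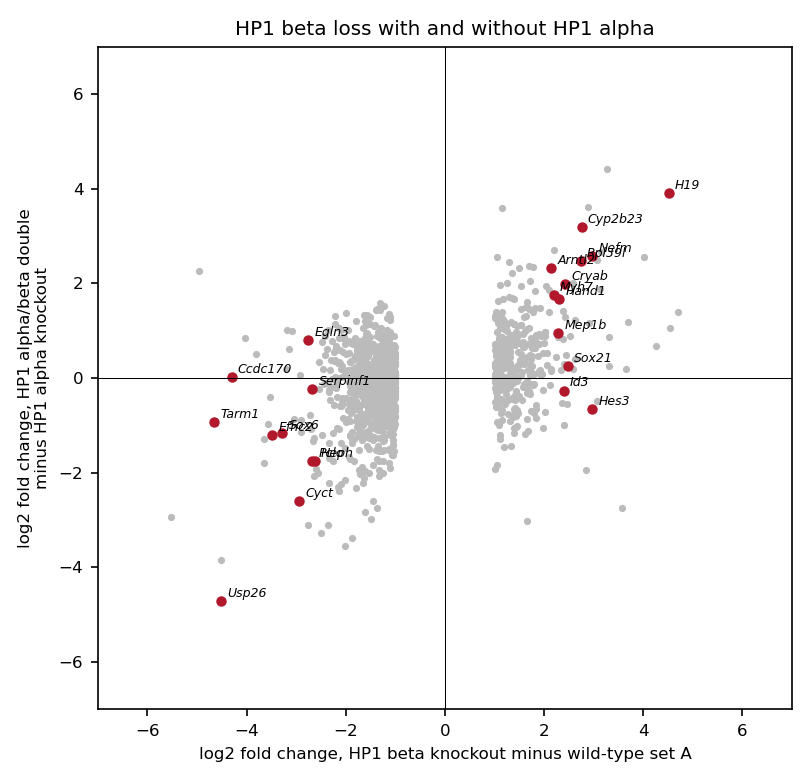
Log2 fold change of HP1α/β double minus HP1α knockout ESCs against that of HP1β knockout ESCs minus wild-type set A, for the 1319 genes called in the latter and tested in both (grey; 22 genes with the largest changes in red). No library enters both axes. Usp26 and H19 lie far out on both, at −4.51 and −4.71 and at 4.51 and 3.91, while Ccdc170 and Id3 lie near 0 on the vertical axis.

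The levels of these genes in all 9 genotypes, with the 27 libraries scaled together, show where HP1β knockout ESCs stand. Usp26 had 173 ± 3.88 CPM (SD, n = 3) in set A and 175 ± 11.1 CPM in set B, 126 ± 2.07 CPM in HP1α knockout and 64.9 ± 4.09 CPM in HP1γ knockout ESCs. It lay at 7.57 ± 0.444 CPM in HP1β knockout ESCs, 4.86 ± 0.788 CPM in the α/β double and 6.68 ± 0.903 CPM in the triple mutant, but at 38.6 ± 0.474 CPM in the β/γ double and 33.4 ± 11.1 CPM in the α/γ double mutant. Its lowest levels were thus in 3 of the 4 genotypes without HP1β. Cyct had 3.75 ± 1.02 CPM in HP1β knockout and 4.09 ± 0.697 CPM in α/β double knockout ESCs, against 28.9 ± 2.41 CPM in set A, and it was highest, at 65.5 ± 19.95 CPM, in the α/γ double mutant.

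Among the genes that rose, Hand1 had 16.9 ± 2.72 CPM in HP1β knockout ESCs and 19.7 ± 0.695 CPM in the β/γ double mutant, its highest levels, against 3.43 ± 0.597 CPM in set A and 1.52 ± 0.134 CPM in the α/γ double mutant. Its levels were 11.3 ± 0.941 CPM in the α/β double and 7.1 ± 0.845 CPM in the triple mutant, which also lack HP1β. Wild-type set B had 5.47 ± 0.484 CPM of Hand1. Krt8 was likewise highest in genotypes without HP1β, with 431 ± 7.65 CPM in the β/γ double, 236 ± 0.859 CPM in the α/β double and 217 ± 25.5 CPM in HP1β knockout ESCs, against 57.3 ± 1.28 CPM in set A and 21.2 ± 4.18 CPM in the α/γ double mutant. Cyp2b23 differed from these. At 18.4 ± 0.776 CPM in HP1β knockout ESCs it was below the 34.6 ± 1.98 CPM of HP1γ knockout ESCs and far below the 438 ± 5.97 CPM of the β/γ double mutant. H19 had 7.97 ± 1.31 CPM in HP1β knockout, 28.1 ± 0.901 CPM in α/β double and 50.7 ± 1.605 CPM in β/γ double mutant ESCs, against 0.344 ± 0.069 CPM in set A. The α/γ double mutant, which keeps HP1β, had 11.3 ± 1.75 CPM of H19, more than HP1β knockout ESCs. Nefm was likewise higher in the α/γ double mutant, at 47.0 ± 3.48 CPM, than in HP1β knockout ESCs, at 17.2 ± 1.13 CPM. Hes3 was highest in HP1β knockout ESCs, at 5.29 ± 0.809 CPM, with at most 2.9 CPM in any HP1γ knockout library, the genotype with the next highest mean.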

How the data were processed

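Total RNA was sequenced by the authors in 3 libraries per genotype. Their notes name TopHat2 2.1.1, RSEM, edgeR and GRCm38.p5, with no roles given. The deposited estimated counts (expected counts) per gene are not normalized, and 11.5% of the values of this table are not whole. The deposited TPM values were made by the authors and are used to compare the HP1 genes. The authors' fold changes and p values were not used. Wild-type libraries recur in several deposited tables, and each was used once.

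Rounding made the estimated counts whole for edgeR. Of 55487 Ensembl identifiers 55141 were found in GENCODE M21. Each comparison was fitted on its 6 libraries in edgeR 4.0.16 (R 4.3.3, limma 3.58.1), with filterByExpr at a minimum count of 10, TMM, estimateDisp, glmQLFit and glmQLFTest, and Benjamini-Hochberg adjustment over all genes tested. Genes were called below an adjusted p of 0.05 if the fold change exceeded 1 (log2) in either direction. The biological coefficient of variation was 0.0681. In these libraries of at least 17330936 counts, a gene under about 10 counts is not tested. A gene that reaches this level in only 1 group is tested, so that genes nearly silent in wild-type enter a list only where they are higher in the knockout. In data simulated for the comparison with set A, on 15735 genes, 93 of 100 genes changed by 1.5 and 96 of 100 changed by 2 (log2) were recovered, with 2 unchanged genes called. The changed genes were drawn from those with a mean of at least 1 CPM. Of the 1442 calls, 179 had a mean under 1 CPM in the higher group, and the recovery does not cover them.

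The groups, gene lists and rules were chosen with earlier results of these data known, so that the list counts are descriptions with no test. Named genes are, among calls with no overlap between groups with a mean of 5 CPM or more on the higher side, the 12 largest rises and falls with an established symbol and the 3 with a predicted one. Further, they are the 6 most abundant calls in each direction, the HP1 genes, the genes within 500 kb of Cbx1, and up to 4 called members of each list, or the 2 most abundant where none was called. In the comparisons between mutants the 4 largest rises and falls were taken. List members beyond these, and the 4 lists, interaction and count without chromosome 16 of the closing section, were chosen after their values were seen. Alternatives were RLE scaling, DESeq2 1.42.0, no filter beyond 1 count, 10 counts in every library, no fold threshold, a replicate block, a joint fit of the single mutants, set B in place of set A, and leaving out libraries in turn. Some genes that these rules name are not reported here. Libraries of Setdb1 floxed and knockout ESCs were not analysed here.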

Additional observations from a re-analysis of the deposited data

Results flagged for a closer look

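The effect of HP1β loss was set against that in cells without HP1α, with an interaction over the 12 libraries of wild-type set A, HP1β, HP1α and HP1α/β knockout ESCs that was chosen after seeing the data. Of 16512 genes 1573 passed (9.53%) at an adjusted p under 0.05 and a difference over 1 on the log2 scale. In a simulation of this fit on 16301 genes, 191 of 200 genes changed by 2 were recovered, with 8 unchanged genes called. The changed genes were drawn from those with a mean of at least 1 CPM. Of the 22 genes reported among the largest changes in HP1β knockout ESCs, 10 passed. These genes were chosen for their size in HP1β knockout ESCs, a choice that favours larger values there.

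In each of the 10 the effect was shifted towards 0 or beyond it in cells without HP1α. HP1α knockout ESCs, from which that effect is measured, had means between set A and HP1β knockout ESCs for each of these genes. With the 27 libraries scaled together, Efhc2 had 18.3 CPM in set A, 2.71 in HP1α and 1.64 in HP1β knockout ESCs. Sox21 had 1.89, 7.7 and 10.6 CPM, Id3 9.63, 27.7 and 50.5 CPM, and Hes3 0.671, 1.49 and 5.29 CPM. How far the changes of the single mutants overlap was not tested. For genes that fell in HP1β knockout ESCs, the difference between the effects was 4.33 for Ccdc170, 3.73 for Tarm1, 3.56 for Egln3, 2.44 for Serpinf1, 2.28 for Efhc2 and 2.12 for Sox6. Egln3 changed sign, from −2.76 to 0.8. For genes that rose, it was −3.62 for Hes3, −2.66 for Id3, −2.24 for Sox21 and −1.34 for Mep1b. Usp26 and Cyct did not pass, with differences of −0.202 (standard error 0.116) and 0.335 (standard error 0.207).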

How the results depend on the processing

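The 1442 calls in HP1β knockout ESCs stayed within 1.5 times under RLE scaling (1428), DESeq2 (1362), no filter beyond 1 count (1738), 10 counts in every library (963), a joint fit (1512) and without chromosome 16 (1376). With set B as the control they were 2429 (898 higher and 1531 lower), and without the fold threshold 8100 (3920 and 4180). The stricter filter, which leaves fewer genes to test, gave 272 higher calls, and 419 of 661 in the comparison of double and HP1α knockout ESCs. Without the fold threshold the counts were 6233 against HP1α knockout, 4864 against HP1γ knockout and 5592 for double against HP1α knockout ESCs. Leaving out 1 library gave 1352 to 1501 calls (418 to 469 higher and 911 to 1032 lower), 868 to 1050, 513 to 662 and 606 to 649.

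Replicate numbers did not pair the libraries, since deviations of same-numbered libraries correlated at 0.02, −0.014 and −0.005, so a replicate block is only a check on numbers, and under it 1406, 926, 564 and 630 genes were called. Of 123 named genes with calls, 120 kept them under the block, 120 under RLE scaling, 115 under DESeq2 and 98 with set B, where Gm20305 (8.92, a fitted value against libraries with no counts, which is no bound) and Olfr1156 (−0.034) reversed. The cause of the difference between the wild-type sets was not tested. Low counts limit the lists, with 4 of 39 Hox genes and 0 of 32 genes of 2-cell-like cells tested.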

Other observations

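Groups of genes that were assembled after the values had been seen add to this picture, as descriptions with no test. Of 43 tested genes of antigen presentation and interferon-inducible GTPases, 16 fell in HP1β knockout ESCs and none rose (median −0.579), beside 6.36% and 2.75% of all genes tested. Against set B the same 16 were called lower, 15 of them against HP1α and 11 against HP1γ knockout ESCs, comparisons that share the knockout libraries. They include the class I genes H2-Q7, which went from 13.9 ± 0.357 CPM (SD, n = 3) to 3.85 ± 1.02 CPM (−1.85), and H2-Q6 (−2.33), which are near-identical copies whose reads may be split. Gbp2, a guanylate-binding protein, went from 17.7 ± 0.248 CPM to 5.82 ± 0.904 CPM (−1.602), and Ddx60, an antiviral helicase, from 4.13 to 0.177 CPM (−4.53). The light chain B2m was not called (−0.501). Parp9 (−1.004) was called at the threshold, and lost the call, among other settings, under RLE scaling (−0.98) and DESeq2 (−0.98) and without knockout replicate 1 (−0.98) or wild-type replicate 1 (−0.94) or 2 (−0.99).

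Of 18 tested genes of the BMP response, several of which are also in the mesoderm and trophectoderm lists, 10 rose and none fell (median 1.05). They hold Cdx2, which passed the filter on low counts through the knockout libraries. Id1 rose from 61.3, 59.1 and 55.6 CPM to 160.3, 163 and 157 CPM (1.45), beside Id3, and Id2 by 1.01 (0.99 without wild-type replicate 3 and 0.96 without knockout replicate 1, not called). The BMP inhibitors Smad6 (−0.22) and Smad7 (0.21) were not called. In the comparison of double and HP1α knockout ESCs, Id1 and Id2 had values of −0.67 and −0.504, against 1.45 and 1.01 here.

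Of 25 genes of the response to amino acid shortage 8 fell and none rose (median −0.778), and 22 were lower at an adjusted p under 0.05 alone, beside 26.4% of all genes tested. Gpt2, a mitochondrial alanine transaminase, fell from 145, 149 and 145 CPM to 48.1, 44.8 and 44.2 CPM (−1.68), Pycr1, of proline synthesis, by 1.77 and Stc2, a secreted glycoprotein, by 1.42, while Atf4 itself was not called (−0.21). Of 23 hypoxia targets 9 fell and 1, Slc2a3, rose (median −0.503). Bnip3, a mitophagy receptor, fell from 99.8, 101 and 104 CPM to 29.8, 26.2 and 27.7 CPM (−1.86) and Vegfa from 40.5, 42.1 and 37.4 CPM to 10.7, 13.6 and 15.9 CPM (−1.58), while Ldha (0.14) and Pgk1 (−0.36) were not called. In double against HP1α knockout ESCs Gpt2, Bnip3 and Vegfa had values of the opposite sign, 0.57, 0.72 and 1.32.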
